A study of Equus caballus with 4 samples.

Results

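Serum amyloid A1 (SAA1), the subunits of the transcription factor NF-kappaB and a set of its inhibitors and target genes were described in differentiating equine satellite cells grown with or without HMB (β-hydroxy-β-methylbutyrate), which is formed from the amino acid leucine. The 10 genes were chosen by name: SAA1, the subunit genes NFKB1, NFKB2, RELA and RELB, the inhibitors NFKBIA and TNFAIP3, and the target genes BIRC3, PTGS2 and TNF. Every non-control probe whose gene name in the array files was one of these was taken. Of the 10 names, 9 were found, with 22 probes, among 24998 gene names in the files. No probe carried the name NFKB2.

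Satellite cells, the stem cells of skeletal muscle, came from the semitendinosus muscle of young colts and were grown for 10 d and moved to new plates, and differentiation was started by lowering the serum once these were mostly covered. HMB was added after the 2nd day of differentiation, and after 24 h, on the 3rd day, cells with HMB were compared with cells kept in the same medium without it. The labels give the amount as 50 µg with no volume, while the methods give a molar concentration, so the dose is not settled here. Each of 4 two-colour arrays carried RNA of HMB-treated cells in Cy5 and of control cells in Cy3, and all 4 lay on 1 slide. The dyes were not swapped, so an effect of HMB and an effect of the dye cannot be told apart. The arrays are labelled as biological replicates without naming the colts, so the p-values measure only the spread between these 4 arrays. The cultures were primary cells preplated to lower the number of fibroblasts, and in RNA of a whole culture fewer cells of a type and less RNA per cell cannot be told apart.

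NF-kappaB is a family of dimeric transcription factors held in the cytoplasm by inhibitor proteins such as IκBα, the product of NFKBIA. Signals from receptors for tumour necrosis factor, interleukin-1 or microbial products activate the IκB kinase complex, the inhibitor is degraded and the dimer enters the nucleus, where its targets include the genes of its own inhibitors, of cytokines and of survival factors. Serum amyloid A is an acute phase protein of the liver and of inflamed tissues whose gene responds to NF-kappaB together with C/EBP and STAT3, and in skeletal muscle prolonged NF-kappaB activity is known for its part in wasting and for holding back myogenic differentiation.

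All values below are log2 ratios of HMB-treated over control cells unless a signal is named, so a value below 0 means less RNA with HMB. Of the 22 probes, 20 were well above the local background in the same channel on all 4 arrays and were tested with limma. The other 2, the single probe of TNFAIP3 and 1 of 3 probes of PTGS2, were not well above background in either channel on any array. Past an adjusted p of 0.05 were 8 of the 20 probes, of which 7 were lower with HMB, all of them SAA1 probes, and 1 was higher, a probe of NFKBIA. Among all 27383 tested probes the same test called 22.8%, with 11.6% lower and 11.2% higher. With each gene represented by its brightest tested probe, 1 of 8 member genes was past the threshold, against 22.4% of 15612 genes, with 11.6% lower and 10.9% higher. The member genes were thus called no more often than genes in general, and the 8 called probes come from few sites, so the account rests on the values of single genes. The study picked serum amyloid A1 on these arrays, through a transcript whose probe the files name SAA. The values of SAA1 and SAA are therefore a description and not independent evidence. The mean ratios of 2 member genes, SAA1 and TNF, were below 0 and those of the other 6 above it, and their median was 0.14, beside 0.018 over all tested genes. With log ratios centred on each array's median and no lowess normalisation, 59.2% of the called probes of the array were higher, against 49.1% here, and the direction of each of the 8 member genes was as given here.

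**Figure D1:**
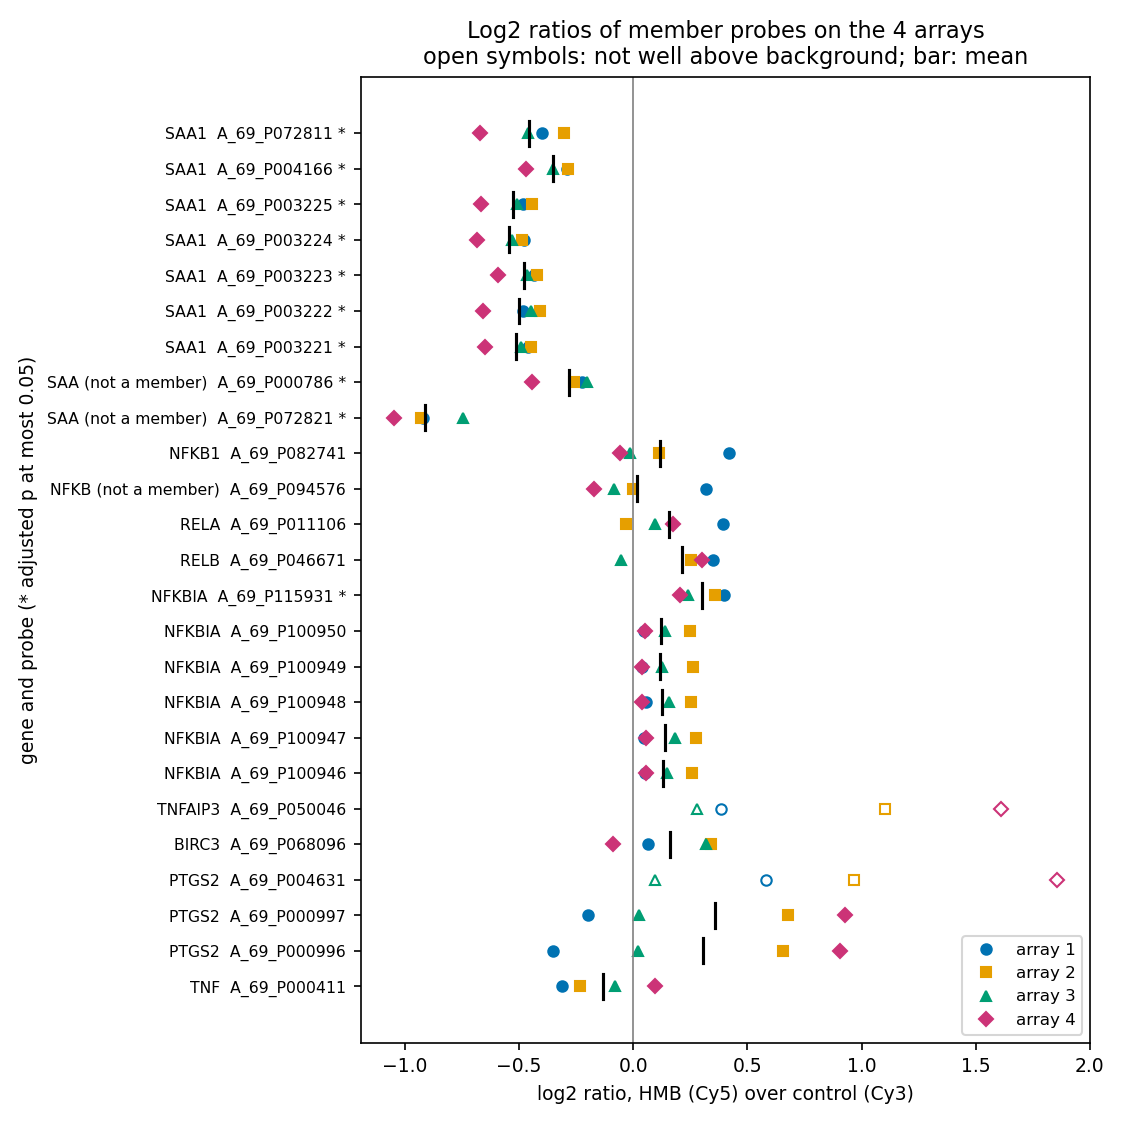
Log2 ratios of HMB over control for each member probe and for the probes named SAA and NFKB, with a symbol for each of the 4 arrays, a bar at the mean of tested probes, open symbols for probes not well above background and an asterisk for an adjusted p of at most 0.05. The 28 values of the 7 SAA1 probes lay between -0.69 and -0.29, all below 0, and the 24 values of the 6 NFKBIA probes between 0.037 and 0.40, all above 0.

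SAA1 (NM_001163892) had 7 probes of 60 bases on chromosome 7 of the build named in the files, EquCab1. Of these, 5 were laid 1 base apart over chr7:74139220-74139283 and had 56 bases in common, so they count as repeated readings of 1 site rather than as separate evidence. The other 2 lay elsewhere in the transcript, at chr7:74139978-74140037 and at chr7:74139463-74139923, the latter with its 60 bases spread over 461 bases of genome. A second gene name, SAA, was carried by 2 further probes on chromosome 7. One of its transcripts, ENSECAT00000013971, is the entry that the study lists as SAA1. The name SAA was not among the 10, and the RefSeq table used here (assembly TB-T2T) lists SAA1 and SAA as separate genes, so the probes are given side by side. The sequences are shown because 1 probe of SAA1 and 1 of SAA are nearly the same, while the other SAA1 probe lies elsewhere in the transcript. Each is written 5′ to 3′. With a shift of 1 base and no gaps, 54 of 59 aligned bases were the same, and the 5 that differ are in capitals.
SAA1 probe A_69_P072811: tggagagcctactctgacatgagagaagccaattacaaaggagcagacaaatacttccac
SAA1 probe A_69_P004166: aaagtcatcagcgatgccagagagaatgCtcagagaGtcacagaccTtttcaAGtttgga
SAA probe A_69_P000786: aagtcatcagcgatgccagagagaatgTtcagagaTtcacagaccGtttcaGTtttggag
Whether RNA of one gene binds the probe of the other was not tested, so the signals of A_69_P004166 and A_69_P000786 are uncertain as to their source. Other pairs of SAA1 and SAA probes were not compared in sequence, so the same doubt was not examined for A_69_P003225 and A_69_P072821.

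The brightest SAA1 probe (A_69_P003225, chr7:74139224-74139283) had a processed signal of 1880, 1928, 1647 and 1396 in control cells on arrays 1 to 4, and of 1346, 1416, 1158 and 879.9 in HMB-treated cells. The signal with HMB was below that of the control cells on each of the 4 arrays, and array 4 was lowest in both channels. As the control signal of array 4 was close to the HMB signals of arrays 1 and 2, the ranges of the 2 channels overlapped between arrays, and the difference rests on the comparison within arrays. The log2 ratios were -0.48, -0.44, -0.51 and -0.67. Array 4 was furthest below 0 and the other 3 lay within a narrow band. The mean was -0.53 (SD 0.10, SE 0.07, *n* 4, 95% interval -0.68 to -0.37), or 0.695 of the control level, with a limma adjusted p of 0.00475. Of the 15612 genes tested, 5.68% had a lower mean.

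The 4 other probes of the same site had means between -0.55 and -0.48, with adjusted p values up to 0.00611. The probe A_69_P072811, which lies nearest of the 7 to the start of the transcript, gave -0.40, -0.30, -0.46 and -0.67, with a mean of -0.46 (SD 0.16, SE 0.08, adjusted p = 0.0118). The probe A_69_P004166, which shares most of its bases with the SAA probe, gave -0.29, -0.29, -0.35 and -0.47, with a mean of -0.35 (SD 0.09, SE 0.06, adjusted p = 0.0144). All 7 probes were thus lower on all 4 arrays, and each was lowest on array 4. The ratios of all tested probes were also most spread on array 4, with an SD of 0.48 beside 0.35, 0.34 and 0.39 on arrays 1 to 3. Without array 4 the mean of the brightest probe was -0.48 (adjusted p = 0.0101), and its call held on leaving out any single array, at adjusted p values between 0.0101 and 0.0255. The adjusted p of A_69_P072811 rose to 0.0501 without array 3, and that of A_69_P004166 to 0.0609 without array 2 and 0.0640 without array 3. These 2 probes also lost their calls with a plain t-test on each probe's 4 ratios (0.0860 and 0.0648) and with channels compared without their pairing on arrays (0.114 and 0.342), and A_69_P072811 with no filter on dim probes (0.0516). For the brightest probe the adjusted p was 0.0533 with the plain t-test and 0.0927 with unpaired channels, the only alternatives of 14 that put it beyond the threshold.

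Both probes named SAA were past the threshold as well. The probe A_69_P072821 (chr7:74261275-74261334), which carries the study's transcript, had control signals of 209, 182, 145 and 95.6 and HMB signals of 110, 95.5, 86.3 and 46.2. The signal with HMB was lower on each of the 4 arrays, and array 4 was again lowest in both channels. Its ratios were -0.92, -0.93, -0.74 and -1.05, with a mean of -0.91 (SD 0.13, SE 0.07, adjusted p = 0.00131). The probe A_69_P000786 (chr7:74288857-74289346) gave ratios of -0.23, -0.26, -0.20 and -0.44, a mean of -0.28 (SD 0.11, SE 0.07, adjusted p = 0.0308). This second probe, the brighter of the pair, lost its call whichever array was left out, with adjusted p values between 0.0548 and 0.119. It also lost it with the plain t-test (0.0964), unpaired channels (0.633) and no filter on dim probes (0.0617). With each array left out A_69_P072821 kept its call, at adjusted p values between 0.00459 and 0.00967. It was nearer the threshold with the plain t-test (0.0432) and no filter on dim probes (0.0175), and lost its call with unpaired channels (0.113). The 9 probes named SAA1 or SAA were therefore all below 0. The 2 probes of SAA differed from each other by more than any 2 probes of SAA1, a difference that was not tested. Probes named XM_003365431 and XM_003365432, whose descriptions in the files also name serum amyloid A, were too dim to be tested. Their mean ratios lay between -0.20 and 0.11.

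**Figure D2:**
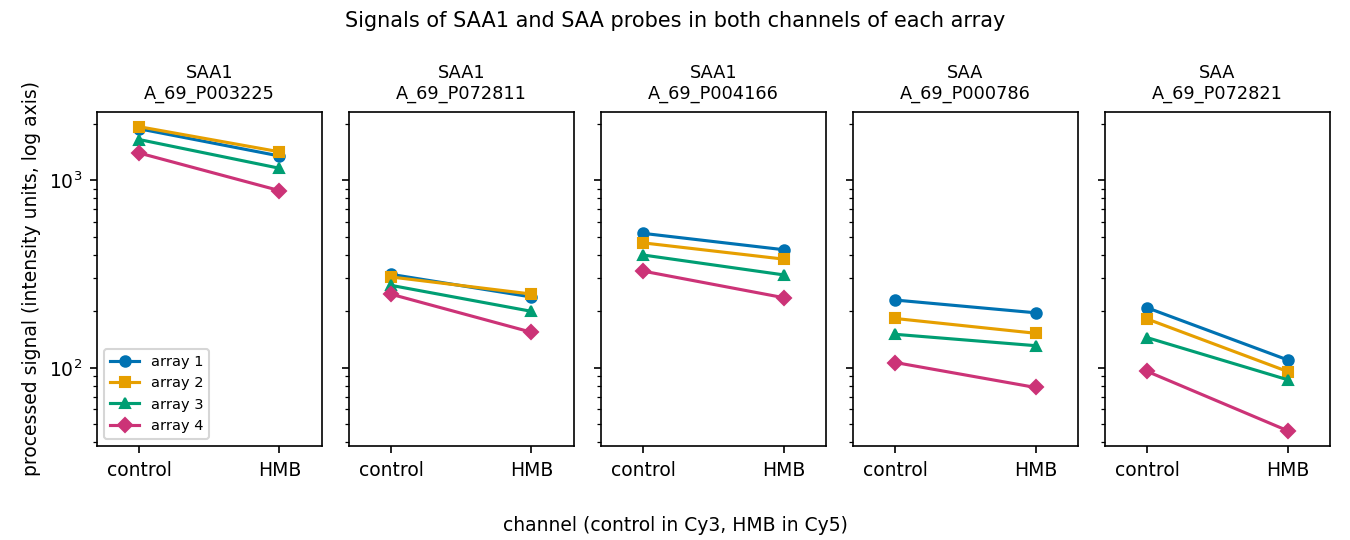
Processed signal (intensity units, log axis) of 3 SAA1 probes and 2 SAA probes in control (Cy3) and HMB (Cy5) channels, with a line for each of the 4 arrays; levels of different probes are not comparable. Each line falls, from 1396 to 879.9 on array 4 for the brightest SAA1 probe and from 95.6 to 46.2 for the SAA probe A_69_P072821.

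Within 200000 bases on each side of the SAA1 probes, a window chosen after the values were seen, lay 11 further probes of 6 gene names, of which 3 genes were tested. SAA was past the threshold, with both probes lower. SAAL1, a neighbouring gene named for its likeness to serum amyloid A, gave 0.0013, 0.096, 0.24 and 0.25, with a mean of 0.15 (adjusted p = 0.177). HPS5, a gene of lysosome-related organelles, gave 0.19, 0.055, -0.11 and -0.40, on both sides of 0, with a mean of -0.069 (adjusted p = 0.662). Neither SAAL1 nor HPS5 was past the threshold. The 5 genes with a symbol whose ratios were most like those of the brightest SAA1 probe over the 4 arrays, of 9298 compared, were SPIN2B, SLC35G1, LDLRAD3, TPPP3 and ADAMTS1. Their root mean square differences from it were between 0.025 and 0.062, and their means between -0.54 and -0.47.

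Of the subunit genes, NFKB1 (ENSECAT00000016267), which encodes the precursor of the p50 subunit, had control signals of 202, 200, 237 and 259 and HMB signals of 270, 216, 235 and 249, and ratios of 0.42, 0.11, -0.014 and -0.057. Array 1 was high and the other 3 lay near 0, and the mean of 0.12 (SD 0.22, SE 0.09, adjusted p = 0.403) was smaller than the spread between arrays. RELA (ENSECAT00000014744), the p65 subunit that carries the main activation domain, gave 0.39, -0.032, 0.096 and 0.17, with a mean of 0.16 (SD 0.18, SE 0.08, adjusted p = 0.215). Array 1 was again the highest of the 4.

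RELB (ENSECAT00000022322), the subunit of the alternative pathway, gave 0.35, 0.25, -0.056 and 0.30. Its values were above 0 on 3 of 4 arrays and below it on array 3, with a mean of 0.21 (SD 0.18, SE 0.08, adjusted p = 0.118) and the smallest adjusted p among the brightest probes of the 7 tested members other than SAA1. A probe named NFKB in the files (ENSECAT00000021368) is described there as the p49/p100 subunit, the product of NFKB2, and gave 0.32, -0.0010, -0.084 and -0.17. Its mean of 0.016 (SD 0.21, adjusted p = 0.916) was far inside the spread, and it was -0.0039 with normexp background correction and loess normalisation, -0.085 without array 1 and 0.15 (adjusted p = 0.195) with median centring. Counted as NFKB2, a choice made after seeing the data, it left the count of member genes past the threshold at 1, of 9 tested. REL, the remaining subunit gene and not one of the 10, had a mean of 0.076 (adjusted p = 0.405).

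For NFKB1, RELA, RELB and the probe named NFKB, array 1 held the highest ratio, between 0.32 and 0.42, and the ratios of NFKB1 and of the probe named NFKB fell in order from array 1 to array 4. Without array 1 the mean of NFKB1 was 0.014 (adjusted p = 0.894), and over the alternatives NFKB1 lay between 0.014 and 0.17, RELA between 0.079 and 0.22 and RELB between 0.083 and 0.30. No subunit gene was past the threshold under any of the alternatives tried, and the 95% intervals, which are not adjusted for the number of probes, reached from -0.11 to 0.34 for NFKB1, from -0.043 to 0.36 for RELA and from 0.0085 to 0.41 for RELB.

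The inhibitor gene NFKBIA (ENSECAT00000025226) had 6 probes on chromosome 1, all above 0 on all 4 arrays. The probe that was past the threshold, A_69_P115931 (chr1:165894165-165894345), spans 181 bases of genome and is shown because it is the single probe of the members that was higher and called.
NFKBIA probe A_69_P115931: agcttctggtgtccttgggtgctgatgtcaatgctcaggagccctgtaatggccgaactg
Its signals were 807, 802, 827 and 929 in control cells and 1061, 1028, 977 and 1070 in HMB-treated cells, and every HMB signal was above every control signal. The ratios were 0.40, 0.36, 0.24 and 0.20, with a mean of 0.30 (SD 0.09, SE 0.06, *n* 4, 95% interval 0.14 to 0.46), or 1.23 of the control level, with an adjusted p of 0.0226. The other 5 probes were laid 1 base apart over chr1:165893465-165893528, shared 56 bases and so stand for 1 site. They gave means between 0.12 and 0.14 with adjusted p values between 0.180 and 0.250, none past the threshold. With median centring their means were between 0.20 and 0.25 and their adjusted p values between 0.0464 and 0.0813, with 1 of the 5, A_69_P100947, past the threshold, and without array 2 their means were between 0.068 and 0.096. The brightest of them, A_69_P100950, gave 0.048, 0.25, 0.14 and 0.051, with a mean of 0.12 (SD 0.09, SE 0.07, adjusted p = 0.220), and represents the gene in the counts.

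The 2 sites of NFKBIA also differed in their order over the arrays, since array 2 was highest for the tiled probes and array 1 for A_69_P115931. The call of A_69_P115931 was lost without array 1 (adjusted p = 0.0549), without array 2 (0.116) and without array 3 (0.0770), with means between 0.27 and 0.33 over the 4 arrays left out in turn. It was also lost with the plain t-test (0.0776) and with unpaired channels (0.0549), while median centring called 2 of the 6 probes, so NFKBIA is given as 1 called probe of 6 and not as a called gene. TNFAIP3 (ENSECAT00000010015), which encodes the deubiquitinase A20, had signals between 3.27 and 11.0 in both channels, not well above background on any array, and its ratios, open symbols in the figure of member probes, were not tested for that reason.

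Of the target genes, PTGS2 varied most between arrays. BIRC3 (ENSECAT00000012986), an inhibitor of apoptosis, gave 0.066, 0.34, 0.32 and -0.089, with a mean of 0.16 (SD 0.21, SE 0.09, adjusted p = 0.245). Arrays 2 and 3 were high, and array 4 lay below 0. Over the alternatives the mean ran from 0.087, with normexp, to 0.24, without array 4. PTGS2 (NM_001081775), which encodes cyclooxygenase-2, had control signals of 139, 87.9, 124 and 117 and HMB signals of 121, 141, 126 and 223 at its brighter probe, A_69_P000997. The ratios were -0.20, 0.68, 0.023 and 0.93, so that arrays 2 and 4 were high and arrays 1 and 3 near or below 0, and the mean of 0.36 (SD 0.53, SE 0.19, adjusted p = 0.219) was smaller than its SD. The second tested probe of PTGS2, A_69_P000996, had the same order of arrays, at -0.35, 0.66, 0.020 and 0.91 (adjusted p = 0.316), with a mean of 0.31 that was 0.11 with normexp or without array 4 and 0.53 without array 1. Of all tested genes, 92.4% had a lower mean than PTGS2, but its arrays lay on both sides of 0, and the mean was 0.17 without array 4 and 0.54 without array 1.

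TNF (NM_001081819), the cytokine that both activates NF-kappaB and is made under its control, had control signals of 1486, 1138, 1026 and 643 and HMB signals of 1195, 969, 969 and 686. The ratios were -0.31, -0.23, -0.081 and 0.095, below 0 on 3 of 4 arrays and above it on array 4. The mean was -0.13 (SD 0.18, SE 0.08, adjusted p = 0.288), and -0.073 without array 1 and -0.21 without array 4. Array 4 had the lowest signal of TNF in both channels, as it had for SAA1 and SAA. At their brightest probes the 7 tested members other than SAA1 thus had adjusted p values between 0.118 and 0.403, with 0.0226 at 1 further probe of NFKBIA, and a p beyond the threshold does not show that their levels were the same in both groups.

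**Figure D3:**
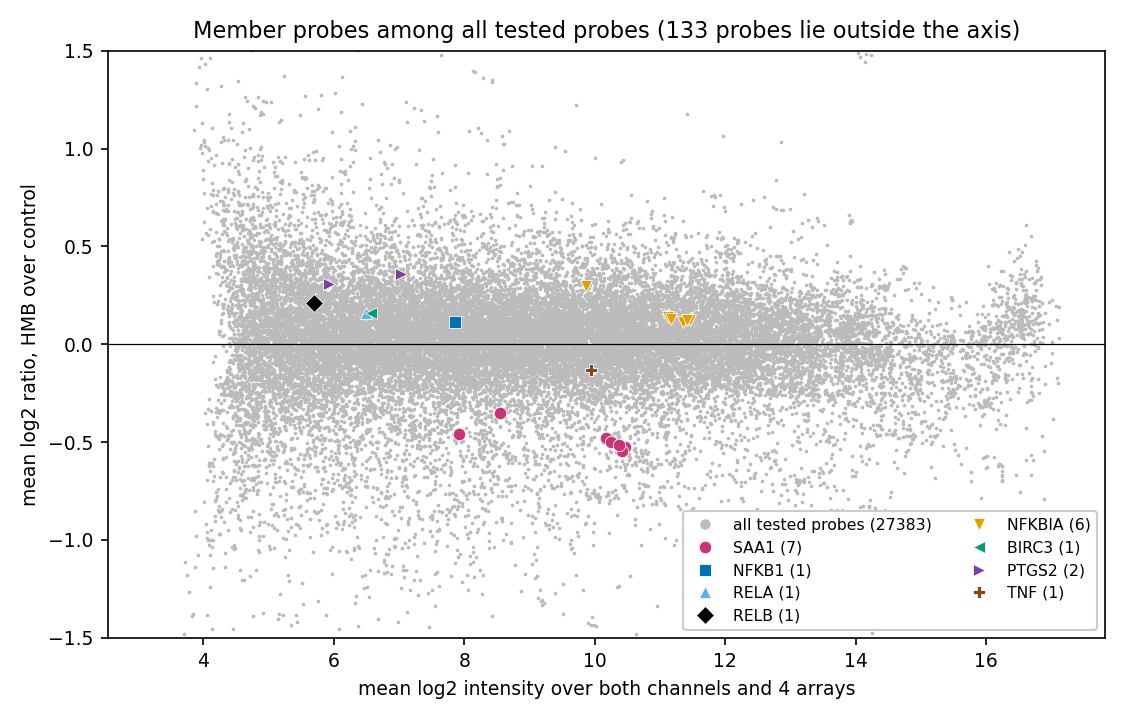
Mean log2 ratio of HMB over control against the mean log2 intensity over both channels and 4 arrays for all 27383 tested probes (grey) and for the tested probes of the members (coloured symbols, with the number of probes in the key); 133 probes lie outside the plotted range. The SAA1 probes lie between -0.55 and -0.35 at intensities from 7.92 to 10.5, and the called NFKBIA probe at 0.30 and 9.86.

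Around the members, 115 other genes of the pathway and of the acute phase were listed by role, of which 106 were on the arrays and 84 were tested. Past the threshold were 24 of the 84 (28.6%), with 10 lower (11.9%) and 14 higher (16.7%), beside 22.4%, 11.6% and 10.9% of all tested genes, and the median of the 84 means was 0.075, beside 0.018. The shares over all genes also stand beside the counts of each list below, and nothing particular to a list is read from its count. With both channels required to be well above background on all arrays, 19 of the 24 stayed past the threshold, 8 lower and 11 higher. CFB, IL1R1, TAB1, TLR2 and TLR3 then dropped out. Of the 24, 9 were called with every single array left out in turn, namely CFB, CP, ICAM1, IL1R1, NFKBIE, NOS2, SCARB1, TLR2 and TRAF3. The other 15 lost their call with at least 1 array left out, and 12, 13, 11 and 15 of the 24 were still past it without arrays 1, 2, 3 and 4.

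Of 11 tested ligands and receptors upstream, 4 were higher and 1 lower. TLR2, a receptor for bacterial lipoproteins and for serum amyloid A, rose on all 4 arrays with a mean of 0.96 (SD 0.34, adjusted p = 0.00615), IL1R1, the interleukin-1 receptor, of 0.81, TNFRSF1B of 0.55 and TLR1 of 0.33, while TLR3, a sensor of double-stranded RNA, fell with a mean of -1.05 (SD 0.74, adjusted p = 0.0336). IL1R1 was well above background in control cells on 2 arrays and TLR2 on 3, and TLR3 in HMB-treated cells on 3, so these ratios are less certain. With normexp TLR2 was at 0.35 (adjusted p = 0.0108), and IL1R1, at 0.23 (0.0544), and TLR3, at -0.56 (0.0565), were not past the threshold. Without array 1 or array 4 TLR3 lost its call, as did TNFRSF1B without array 1, 3 or 4 and TLR1 without array 2, 3 or 4, with adjusted p values up to 0.0862, 0.0876 and 0.144. Not past the threshold were 6, with the largest means at IL1RAP (-0.34), TLR4 (0.23) and TNFRSF12A (-0.17). Over the alternatives IL1RAP lay between -0.50, past the threshold with median centring (adjusted p = 0.0232), and -0.13, with normexp, TLR4 between 0.15 and 0.37 and TNFRSF12A between -0.23 and -0.031. Not tested were IL1A, IL1B and LTB.

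Of 22 adaptors and kinases above the IκB kinases, 3 were higher by limma, namely TRAF3 (0.48, adjusted p = 0.0123), TAB1 (0.60, well above background in control cells on 1 array) and RIPK1 (0.30). The number lower was 0, against 5 in each direction at an unadjusted p under 0.05, and the plain t-test called 0 lower and 1 higher, which was none of these 3. TRAF5 (-0.54), MAP3K7 (-0.28) and TIRAP (0.27) had the largest means of the 19 not past it, with adjusted p values between 0.0507 and 0.0837; TRAF5 was past it with normexp (-0.42, adjusted p = 0.0332) and with median centring (-0.55, 0.0363), and MAP3K7 with normexp (-0.30, 0.0349), while TIRAP was at 0.13 with normexp and 0.17 without array 1, and TRAF5 at -0.35 without array 4. TAB1 lost its call without array 1, 2 or 4 (adjusted p up to 0.104) and RIPK1 whichever array was left out (up to 0.0896). TAB1 was at 0.25 with normexp and not past the threshold with median centring (0.40, adjusted p = 0.0827). Of 7 IκB kinases and related genes, IKBKE, at 0.37 (adjusted p = 0.0407), and IKBKG, the regulatory subunit NEMO, at 0.23 (adjusted p = 0.0487), were higher, and of the 5 others MAP3K14 (0.22, but -0.0065 with normexp and -0.021 with median centring), TBK1 (-0.20, and -0.090 without array 4) and CHUK (-0.18, and -0.076 without array 4) had the largest means. IKBKE lost its call without array 1, 3 or 4 (adjusted p up to 0.151) and IKBKG whichever array was left out (up to 0.214). Both also lost it with other scaling, IKBKE at 0.10 (adjusted p = 0.228) with normexp and 0.22 (0.153) with median centring, and IKBKG at 0.13 (0.102) and 0.057 (0.596).

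Of 16 tested inhibitors besides NFKBIA and TNFAIP3, 5 were lower and 1 was higher. NFKBIE, which encodes another IκB protein, had ratios of -0.27, -0.43, -0.58 and -0.52 and a mean of -0.45 (SD 0.14, adjusted p = 0.0104), below 0 on all 4 arrays where the probes of NFKBIA were above it. PDLIM2 fell to a mean of -0.65, RNF11 of -0.38, OTUD7B of -0.29 and NKIRAS1 of -0.26. PDLIM2 lost its call without array 3 (adjusted p = 0.0641), and RNF11, OTUD7B and NKIRAS1 without array 1, 2 or 3, with adjusted p values up to 0.0943, 0.149 and 0.120. With median centring PDLIM2 was at -0.36, and RNF11, at -0.22 (adjusted p = 0.0978), was not past the threshold. The gene that was higher, NFKBIZ, at 0.37 (adjusted p = 0.0463), fell outside the 5 named by adjusted p and was added after its value was seen; it lost its call whichever array was left out, with normexp (0.23, adjusted p = 0.0645) and with median centring (0.31, 0.0545). TNIP2 (0.19), TAX1BP1 (-0.19) and OTULIN (0.18) were the largest of the 10 not past the threshold, of which TAX1BP1 was past it with normexp (-0.23, adjusted p = 0.0382) and at -0.00058 with median centring. TNIP2 was at 0.036 and OTULIN at 0.087 with normexp, and TNIP2 at 0.090 without array 4. Not tested were NFKBID and BCL3.

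Of 15 tested target genes besides the members, 2 were lower and 3 higher. NOS2, inducible nitric oxide synthase and another gene the study picked on these arrays, had ratios of -1.14, -1.21, -1.21 and -1.39 with a mean of -1.24 (SD 0.11, adjusted p = 0.000633), and 5 of its 12 probes were tested and all 5 called. PTX3, a pentraxin, had a mean of -0.63 (adjusted p = 0.0351). ICAM1 rose with a mean of 0.81 (SD 0.31, adjusted p = 0.00766), LCN2 of 0.44 and TRAF1 of 0.27. LCN2 lost its call without array 1, 2 or 3 (adjusted p up to 0.113), PTX3 without array 2 or 3 (up to 0.0996) and TRAF1 whichever array was left out (up to 0.116). With normexp ICAM1 was at 0.38 (adjusted p = 0.0141), and TRAF1 was not past the threshold with normexp (0.17, 0.0681) or median centring (0.23, 0.0832). Not past the threshold were 10, with CCL2 (0.45), IL6 (-0.35) and CD44 (0.28) the largest; median centring put these 3 past it, at 0.63, -0.55 and 0.52, with adjusted p values of 0.0128, 0.0333 and 0.00327. CCL2 was past it also without array 3 (0.64, adjusted p = 0.0320) and CD44 without array 4 (0.36, 0.0464), but CCL2 fell to 0.32 and CD44 to 0.18 without array 1. IL6, well above background in HMB-treated cells on 3 arrays, was at -0.17 with normexp and -0.18 without array 2. SOD2, added after its values were seen, was not past the threshold at its brightest probe (0.14, adjusted p = 0.115). All 10 of its tested probes had means above 0, however, and 6 of them were called, so its place among the genes not called rests on the choice of probe. Not tested were CXCL8, VCAM1, BCL2A1, CFLAR, CSF1 and LIF.

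Among acute phase genes besides SAA1, 3 of 14 were tested and 2 were lower: complement factor B (CFB), at -1.31 (SD 0.23, adjusted p = 0.00117), and ceruloplasmin (CP), at -0.94 (SD 0.43, adjusted p = 0.0114). In HMB-treated cells CFB was well above background on 3 arrays. With normexp both were past the threshold at smaller means, CFB at -0.71 and CP at -0.42. HP, LBP, CRP, SERPINA3, A2M and FGB were on the arrays but not tested, and no probe was named SAA2, SAA3, SAA4, ORM1 or C3. With both channels required to be well above background on all arrays, CFB dropped out of the test. The list is too short to be read together with SAA1. Of 7 tested regulators of these genes, 0 were past the limma threshold, 2 at an unadjusted p under 0.05 and 0 with the plain t-test, and OSMR (0.48), IL6ST (-0.16) and STAT3 (0.15) had the largest means. OSMR, well above background in control cells on 3 arrays, was at 0.11 with normexp, while without array 3 it was called at 0.66 (adjusted p = 0.0169), and STAT3 was at 0.055 without array 1. Of the 3 tested receptors of serum amyloid A, SCARB1 was higher, at 0.44 (SD 0.10, adjusted p = 0.00796). TLR2 was also called higher, but it was well above background in control cells on 3 arrays and dropped out with both channels required. CD36, well above background in HMB-treated cells on 3 arrays, was at -0.045 (adjusted p = 0.744), with 0.041 without array 1 and -0.25 with median centring. FPR2, P2RX7 and AGER were not tested.

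**Figure D4:**
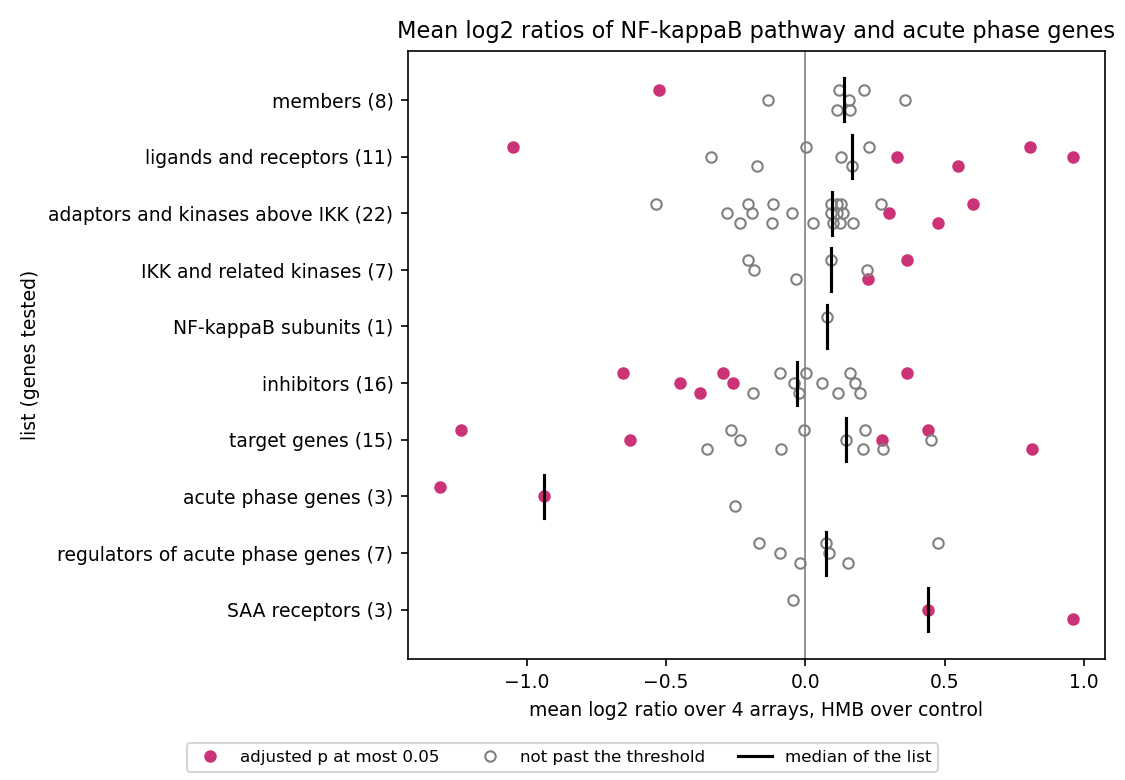
Mean log2 ratio over 4 arrays, HMB over control, of each tested gene in the members and in 9 lists by role, with the number of genes tested in brackets, filled points for an adjusted p of at most 0.05 and a bar at the median of the list. SAA1 is the filled point of the members at -0.53, and the medians of the lists run from -0.94 for 3 acute phase genes to 0.44 for 3 receptors of serum amyloid A.

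Markers of the cell types that such cultures can hold were read on the same arrays. Of 10 muscle markers, 9 were tested and 8 were lower with HMB, among them MYF5 (-1.01), TNNT1 (-0.87) and DES (-0.98), and the median of the 9 was -0.43, -0.80, -0.95 and -1.26 on arrays 1 to 4. Their summed signal was 187349, 187026, 199928 and 207544 in control cells and 136522, 94534, 87196 and 78273 in HMB-treated cells, with MYH3 (-1.11) as the most abundant. With median centring MYH3 was at -0.37 and not past the threshold (adjusted p = 0.0522), and DES was at -0.62; the plain t-test called 0 of the 9, with 7 lower at an unadjusted p under 0.05. PAX7, which marks quiescent satellite cells, was not tested, as it was not well above background in 1 channel on all 4 arrays. As with SAA1, array 4 was furthest below 0, and the part of these markers in the result for SAA1 was not tested.

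Of 8 fibroblast markers, 7 were tested and 2 were higher, PDGFRA (1.53) and FAP (0.42, with an adjusted p up to 0.0802 without array 1, 2 or 3). Not past the threshold were COL1A1 (-0.54, adjusted p = 0.137, below 0 on 3 of 4 arrays), THY1 (-0.10), LUM (0.0071), DCN (0.15) and COL3A1. The median was 0.0071, with summed signals between 230135 and 312996 in control cells and between 209703 and 298883 in HMB-treated cells. COL3A1 had the highest signal, and TCF21 was not tested for the same reason as PAX7. COL3A1, at -0.21 (adjusted p = 0.365), was higher and past the threshold with median centring (0.75, 0.00343), at -0.39 without array 1 and -0.042 without array 4, and 5 of its 7 probes had means above 0. PDGFRA was at 0.89 with normexp. DCN had 2 tested probes with means above 0, of which 1 was called, though not the brightest. Of the 6 tested LUM probes, 5 had means below 0 and 1 above, and 0 were called. Of 9 macrophage and leukocyte markers, 3 were tested, with a median of 0.020 and summed signals between 14946 and 17167 in control cells and between 16549 and 22094 in HMB-treated cells, and CSF1R, ITGAM, AIF1, TYROBP, LAPTM5 and CD163 were too dim to be tested. Of the 3 tested, PTPRC had the highest signal. It was higher at its brightest probe (0.28, and 0.51 with median centring), with adjusted p values between 0.0551 and 0.115 with each array left out. But of its 15 probes 7 could not be tested and the 8 others went both ways, with 6 means above 0, all called, and 2 below, of which 1 was called. The other 2 tested, named after their values were seen, were CD68, at -0.29 (adjusted p = 0.120), and CD14, at 0.020 (adjusted p = 0.868). CD68 was below 0 on all 4 arrays, at -0.033, -0.066, -0.655 and -0.40. CD14 gave 0.20, 0.042, 0.0088 and -0.17, so its mean near 0 depends on which arrays are used. Of the 5 endothelial and 5 adipocyte markers 0 were bright enough to be tested. The part of these cells in the values of SAA1, NFKBIA and the other members was not tested.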

How the data were processed

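Each of the 4 arrays (*n* 4) compared HMB-treated cells (Cy5) with control cells (Cy3). Scanned images were quantified by the authors with Feature Extraction, version 10.10.1.1 by the file headers, while the methods name a different one. The deposited intensity columns hold background-subtracted, dye-normalised signals, and raw mean signals with the median local background. The authors also deposited log10 ratios, normalised by linear scaling and lowess, and a summary table whose log10 values equal them (largest difference 0, median 0 on each array). Other deposited columns mark spots as well above background, non-uniform, outlying or saturated.

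Here ratios were multiplied by 3.32 (log2 of 10) after marked spots (11, 17, 32 and 15 of 43803 on arrays 1 to 4) had been dropped; 0 spots were saturated. The 1417 control spots of each array were not used. Spots were averaged within 43603 probes. In control cells 63.5% to 66.9% of gene spots, and with HMB 64.2% to 66.5%, were well above background, and the number of arrays limits the precision. Observed log ratios of spiked-in RNA rose with the known ones at slopes of 0.859, 0.855, 0.833 and 0.803 by the file headers. Testing required 1 channel to be well above background on every array, and ratios from 3 arrays or more. With HMB over control as the only term, limma 3.58.1 (R 4.3.3) gave two-sided p-values, standard errors and intervals from moderated variances. Adjustment was by Benjamini and Hochberg over 27383 probes at a threshold of 0.05. The brightest tested probe stood for its gene. The procedure was run on simulated data, of which no result is given here.

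All members were named with all probes. Each pathway list gave up to 5 genes past the threshold, by adjusted p, and the 3 others of largest mean, of which 1 is not reported here; marker lists gave up to 3 and the most abundant; the 5 genes most like SAA1 were taken by root mean square difference. Members and lists were chosen with earlier results of these data known. Names are those of the files, except 30 list genes named by description and 3 (CXCL8, VCAM1 and NOS2) through the RefSeq table, which matched 1979 of 43603 probes. Alternatives were normexp (offset 50) with loess, median centring without lowess, a plain t-test (a Student test is named in the study's supplement, no test in its methods), an intensity trend with a robust prior, unpaired channels, other filters on dim probes, marked spots kept, the summary table, gene means over probes and each array left out. Python 3.11.15, pandas 2.3.3 and matplotlib 3.10.9 were used.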

Additional observations from a re-analysis of the deposited data

Results flagged for a closer look

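On 5 of 81 probes of named genes 1 array stood far from the other 3, where chance flags about 1 in 20 groups. No probe of SAA1, NFKBIA or another member was among them. TRAF3 was at 0.74 on array 4, with the others between 0.37 and 0.40. RNF11 was at -0.73 on array 4, with the others between -0.28 and -0.24. TPPP3, 1 of the genes most like SAA1, was at -0.63 on array 4, with the others between -0.43 and -0.40. NKIRAS1 was at -0.37 on array 1, with the others between -0.23 and -0.22. PTPRC was at 0.47 on array 1, with the others between 0.21 and 0.22.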

How the results depend on the processing

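SAA1 was lower under all 14 alternatives (-0.55 to -0.47, adjusted p from 0.00219 to 0.0927) and past the threshold under 12; with the plain t-test (-0.53, adjusted p = 0.0533) and with channels not paired within arrays (-0.53, adjusted p = 0.0927) it was not. Leaving out each array gave -0.55 to -0.48. Of the 8 member genes 1 was past the threshold, also with the probe named NFKB counted as NFKB2 (added after seeing the data) and whichever array was left out (1 to 1); with the plain t-test and with unpaired channels 0 were (1 and 1 at an unadjusted p under 0.05).

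Lower pathway genes, 10 here, were 16 with normexp, 1 with the plain t-test, 6 unpaired and 5 with no filter on dim probes, and 5 to 10 with an array left out; with the first 4 of these settings 9, 1, 6 and 4 of the 10 stayed lower. Higher ones, 14 here, were 2, 2 and 4 with the plain t-test, unpaired and unfiltered, where 0, 2 and 1 of the 14 stayed higher, and 6 to 8 with an array left out. Probes past the threshold, 6257 here, were 768 with the plain t-test, 2226 unpaired and 3690 unfiltered, and 2569 to 4981 with an array left out; higher calls were 29.9% unpaired and 36.3% without array 2, against 49.1%.

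The sign turned for the MAP3K14 log2 ratio (-0.00649 with normexp, -0.021 with median centring), the CD36 log2 ratio (-0.12 to 0.041 with an array left out, above 0 without array 1), the COL3A1 log2 ratio (0.098 with normexp, 0.75 with median centring, there past the threshold at an adjusted p of 0.00343) and the probe named NFKB (NFKB2 log2 ratio -0.0039 with normexp, 0.15 with median centring, -0.085 to 0.078 with an array left out, below 0 without array 1). Of other values of named genes, 747 stayed on their side of the threshold, 144 were lost and 17 gained. The cause was not tested. Genes near background, such as TNFAIP3, are limited by signal.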
